A study of Homo sapiens with 24 samples.

Results

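The ATF4 amino acid stress genes are 36 genes that encode ATF4, its partner transcription factors and known targets of the amino acid and integrated stress response. Of these, 35 had a probe set assigned to 1 gene symbol, among 19775 such genes on the arrays, and each gene was read from the brightest of its probe sets, by the mean of the 24 arrays. GPT2 was not analysed here. Expression was measured in KARPAS-422, a human cell line derived from diffuse large B-cell lymphoma. All groups share its EZH2 genotype, labelled Y641N. The groups were cells given an EZH2 inhibitor (EZH2i) at 5 uM for 1, 2, 3 or 6 days and cells given DMSO, the vehicle, for the same days, with 3 biological replicates of each of the 8 groups on Affymetrix U133 Plus 2 arrays. EZH2 is the enzyme of Polycomb repressive complex 2 that methylates histone H3. The compound is not named in the labels, and all arrays come from 1 cell line.

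When amino acids run short, when unfolded proteins build up or when other stress kinases are active, the initiation factor eIF2 is phosphorylated, most protein synthesis slows and ATF4 mRNA is translated better. ATF4 then pairs with C/EBP proteins on response elements of genes for amino acid uptake, amino acid synthesis, tRNA charging and one-carbon metabolism, and of feedback genes such as DDIT3 and TRIB3. Rapidly dividing lymphoma cells draw on the same genes for growth. The arrays measured transcripts in RNA pooled from a culture, so less transcript in every cell and fewer cells carrying it cannot be told apart.

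The element at which ATF4 and C/EBP proteins bind is often written TGATGNAA, where N is any base. It was searched on both strands in the 250 bases before the gene start given in the RefSeq promoter table (GRCh38.p14), which held 28 of the 35 genes. A match was present in 4 of 28 (14.3%), against 870 of 27305 promoters in the table (3.19%) and 355 of 15384 promoters of measured genes (2.31%). The 4 sequences follow, 5′ to 3′ on the strand of the gene with the match in capitals, because they show the element in a gene with a wide range over the arrays (CHAC1) and in the asparagine synthetase gene (ASNS), a textbook target of ATF4. They lie at chr15:40953221-40953470 (plus strand) for CHAC1, chr7:97872409-97872658 (minus strand) for ASNS, chr1:212565157-212565406 (plus strand) for ATF3 and chr6:150866236-150866485 (plus strand) for MTHFD1L, before the start that the promoter table gives for each. The ASNS and MTHFD1L windows lie inside the span of the gene record. The match is written in reverse complement in CHAC1.
CHAC1: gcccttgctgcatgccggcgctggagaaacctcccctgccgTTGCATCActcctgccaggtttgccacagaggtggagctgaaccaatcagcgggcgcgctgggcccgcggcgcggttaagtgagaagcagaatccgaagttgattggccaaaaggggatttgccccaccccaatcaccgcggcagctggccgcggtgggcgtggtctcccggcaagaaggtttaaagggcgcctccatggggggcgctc
ASNS: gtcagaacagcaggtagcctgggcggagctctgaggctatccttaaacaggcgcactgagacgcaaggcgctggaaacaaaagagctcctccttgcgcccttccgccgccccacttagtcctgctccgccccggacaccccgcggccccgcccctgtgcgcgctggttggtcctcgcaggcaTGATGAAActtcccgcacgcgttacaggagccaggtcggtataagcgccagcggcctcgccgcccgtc
ATF3: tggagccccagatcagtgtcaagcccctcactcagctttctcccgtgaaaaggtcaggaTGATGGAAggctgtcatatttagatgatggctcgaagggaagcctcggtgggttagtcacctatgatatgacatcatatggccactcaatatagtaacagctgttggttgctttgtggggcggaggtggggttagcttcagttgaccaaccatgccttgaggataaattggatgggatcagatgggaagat
MTHFD1L: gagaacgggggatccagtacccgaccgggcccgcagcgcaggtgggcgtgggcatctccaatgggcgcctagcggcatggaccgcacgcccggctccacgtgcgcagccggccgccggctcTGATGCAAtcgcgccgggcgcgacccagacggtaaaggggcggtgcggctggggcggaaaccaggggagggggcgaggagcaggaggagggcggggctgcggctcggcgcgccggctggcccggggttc
The first base of the match lay 209, 68, 191 and 129 bases before the start of CHAC1, ASNS, ATF3 and MTHFD1L. CHAC1 and ASNS were among the 23 genes lower with EZH2i at day 3, of which 19 had a promoter in the table and 2 a match (10.5%), against 2 of 9 (22.2%) for genes that were not. A match is a description of these letters only.

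The DMSO replicates of day 3 differed from one another, and this bears on every comparison that uses them. Expressed as the mean change of the 35 genes from the DMSO day 1 mean, DMSO day 3 array 1 stood at 0.02 on the log2 scale, array 2 at 1.11 and array 3 at 0.81. Array 1 was thus at the level of day 1, whereas 27 genes on array 2 and 23 on array 3 were more than 0.5 above the DMSO day 1 mean, as was 1 gene on array 1. The 3 EZH2i arrays of day 3 stood at -0.06, -0.05 and -0.06. At day 6 the EZH2i arrays stood at -0.19, -0.15 and -0.11 and the DMSO arrays at 0.48, 0.35 and 0.23 on arrays 1, 2 and 3. On those DMSO arrays 10, 12 and 3 genes were more than 0.5 above the DMSO day 1 mean. The median SD of the genes was 0.50 in the DMSO day 3 group and 0.11 to 0.16 in the other 7 groups, whereas over all genes it was 0.11 in the DMSO day 3 group too. On array 2, 16 of the 35 genes were more than 1 log2 unit above array 1, as were 46 of all 19775 genes (0.233%). On array 3 the counts were 12 of 35 and 39 of 19775 (0.197%).

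**Figure D1:**
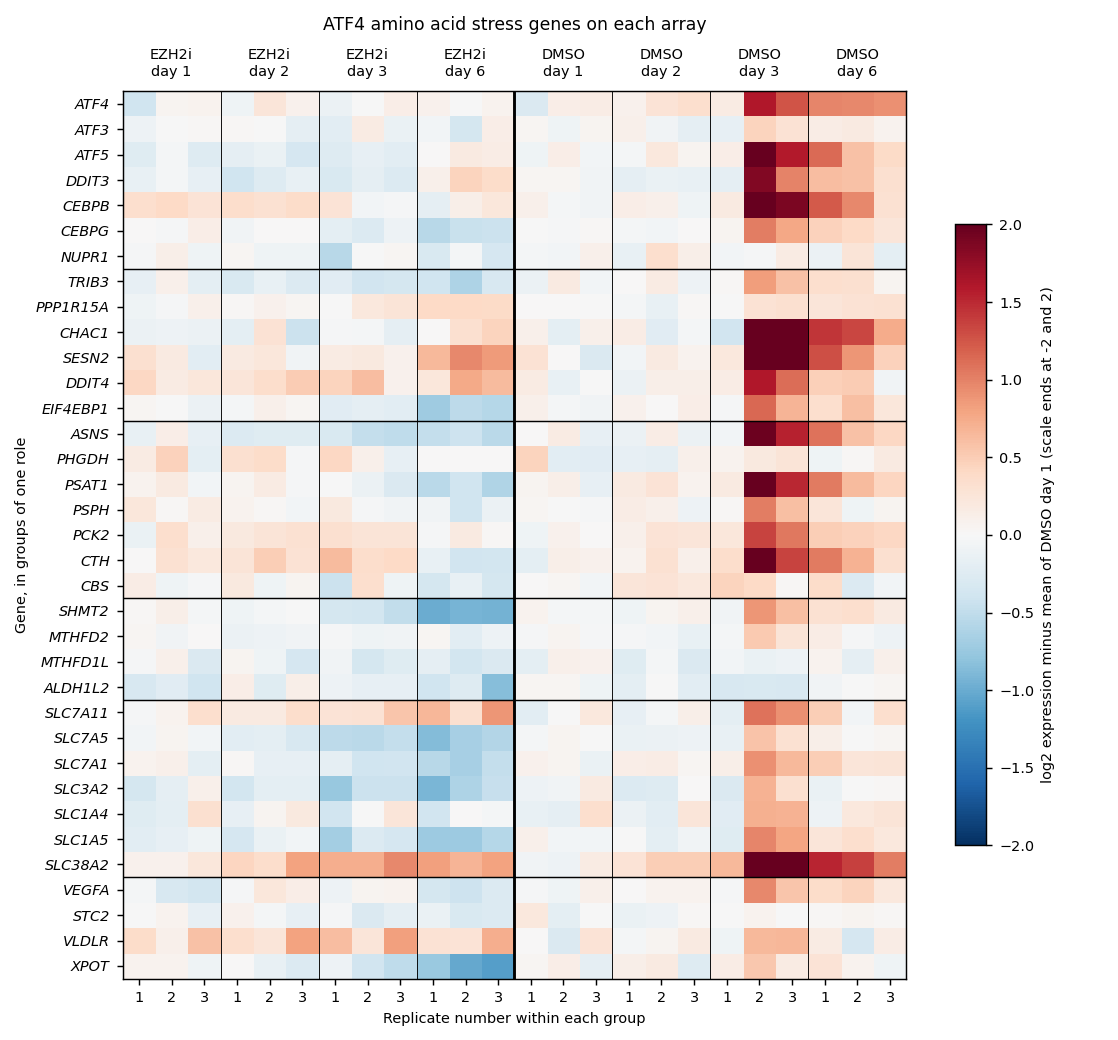
Heat map of the 35 genes (rows, grouped by role) on the 24 arrays (columns, EZH2i then DMSO, days 1, 2, 3 and 6 with replicates 1 to 3). Colour is log2 expression minus the gene's mean in DMSO day 1, with the scale ending at -2 and 2; DMSO day 3 arrays 2 and 3 are the darkest red columns, and array 1 of that group is near 0.

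The array medians lay between 4.958 and 5.032, and 30 of the 35 genes were among the brightest 60% of all genes. B-cell genes such as MS4A1 (12.01 to 13.29), PAX5 (11.35 to 12.10) and CD79B (10.34 to 11.77) were bright on all arrays. Of the 5 T-cell genes, CD3G (10.36 to 11.38) and CD247 (8.67 to 10.38) were bright, CD3D lay at 6.70 to 7.51, and CD3E (4.66 to 5.04) and CD2 (3.48 to 3.94) were dim. Over the 24 arrays the medians of the 4 myeloid genes were 4.02 to 5.20 and those of the 6 epithelial, stromal and endothelial genes 2.79 to 6.75. Of these, LYZ (lysozyme) differed between EZH2i and DMSO by 0.11, 0.85, 1.97 and 2.52 at days 1, 2, 3 and 6, and PECAM1, an adhesion protein of endothelium and leukocytes, by 0.49, 1.69, 2.81 and 4.20. The part of these markers in the results below was not tested. The EZH2 transcript differed between EZH2i and DMSO by 0.05, -0.09, -0.29 and -0.64 at days 1, 2, 3 and 6, and fell at day 6 (limma, adjusted p = 8.9e-05).

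At days 1 and 2 no gene of the group was called between EZH2i and DMSO. A gene is said to have risen or fallen where limma gave an adjusted p under 0.05 over all 19775 genes. The p-values measure the spread between these replicate cultures, with 1 estimate per gene shared by all 8 groups. The wide spread of the DMSO day 3 group (median SD 0.50) thus enters the SE of these genes at every day. At day 1 the count was 0 of 35, with 1 gene at an unadjusted p under 0.05, and 0.485% of all genes were called. At day 2 it was 0 of 35, with 0 at an unadjusted p under 0.05, against 4.39% of all genes. The median difference was -0.01 at day 1 and -0.02 at day 2, against -0.01 and -0.04 over all genes.

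At day 3, 23 of 35 genes were lower with EZH2i and 0 higher, while 7.65% of all genes were called lower and 16.3% in either direction. The median difference of the 35 was -0.76, against -0.04 over all genes. The 3 EZH2i arrays lay below all 3 DMSO arrays in 15 of 35 genes, and in 17.5% of all genes. Without DMSO day 3 arrays 2 and 3 the count was 2 of 35, namely SHMT2 (-0.33, adjusted p = 0.046) and SLC7A5 (-0.37, adjusted p = 0.028), while 3.70% of all genes were called lower. In that fit, which assumes that the lone DMSO array varies like the other groups, the median was -0.12, with 21 differences below 0 and 14 above. The count was 15 without array 2 alone, 16 without array 3 alone and 27 without array 1 (with ATF3, DDIT4, SLC7A11 and SLC1A4 added), where 5.83% of all genes were called lower. It was 10 in a fit limited to the day 3 groups, against 4.41% of all genes. With the replicate number as a block it was 24, with SLC1A4 added (adjusted p = 0.024), against 11.9% of all genes.

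At day 6, 16 of 35 genes were lower with EZH2i and 0 higher, while 26.9% of all genes were called lower and 45.4% in either direction. The median difference was -0.54, against -0.11 over all genes. The EZH2i arrays lay below all DMSO arrays in 22 of 35 genes and in 32.3% of all genes. The count was 15 to 17 when any 1 array of the day 6 groups was left out. In a fit limited to the day 6 groups 5 more genes were called and 0 of the 16 were lost. The share of all genes called in that fit is not given here. Of the 16, 14 kept their call under each of the alternatives that could be run. The exceptions were STC2, which lost it when any of 5 single arrays was left out, and ALDH1L2, which lost it without the arrays numbered 3 (adjusted p = 0.061). With the replicate number as a block, 17 were lower and 1 higher, with PCK2 (adjusted p = 0.031) and VLDLR (adjusted p = 0.018) added, against 29.9% of all genes lower and 20.3% higher.

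Of the genes called at either day, 14 were lower at both day 3 and day 6: ATF4, CEBPG, TRIB3, EIF4EBP1, ASNS, PSAT1, CTH, SHMT2, SLC7A5, SLC7A1, SLC3A2, SLC1A5, VEGFA and XPOT. Another 9 were called at day 3 and 2 at day 6 alone, but the change of the EZH2i minus DMSO difference between these days was itself called for 1 gene, ALDH1L2 (-0.66 ± 0.16, SE, adjusted p = 0.0084), among 12.5% of all genes. ALDH1L2 kept that call when any 1 array was left out, but not without DMSO day 3 arrays 2 and 3. It also lost the call with the mean of its probe sets (-0.17, adjusted p = 0.19). The difference changed between day 1 and day 3 for 6 genes, CEBPB, CEBPG, PSAT1, SHMT2, SLC7A5 and SLC7A1, all toward lower with EZH2i, against 1.01% of all genes in that direction, and for 0 of them without DMSO day 3 arrays 2 and 3. With the replicate block these 2 counts of 1 and 6 genes were 2 and 12, against 18.8% and 6.34% of all genes. Called at neither day in the fit of all arrays without the block were 10 genes, ATF3, NUPR1, PPP1R15A, DDIT4, PHGDH, CBS, MTHFD1L, SLC7A11, SLC1A4 and VLDLR.

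**Figure D2:**
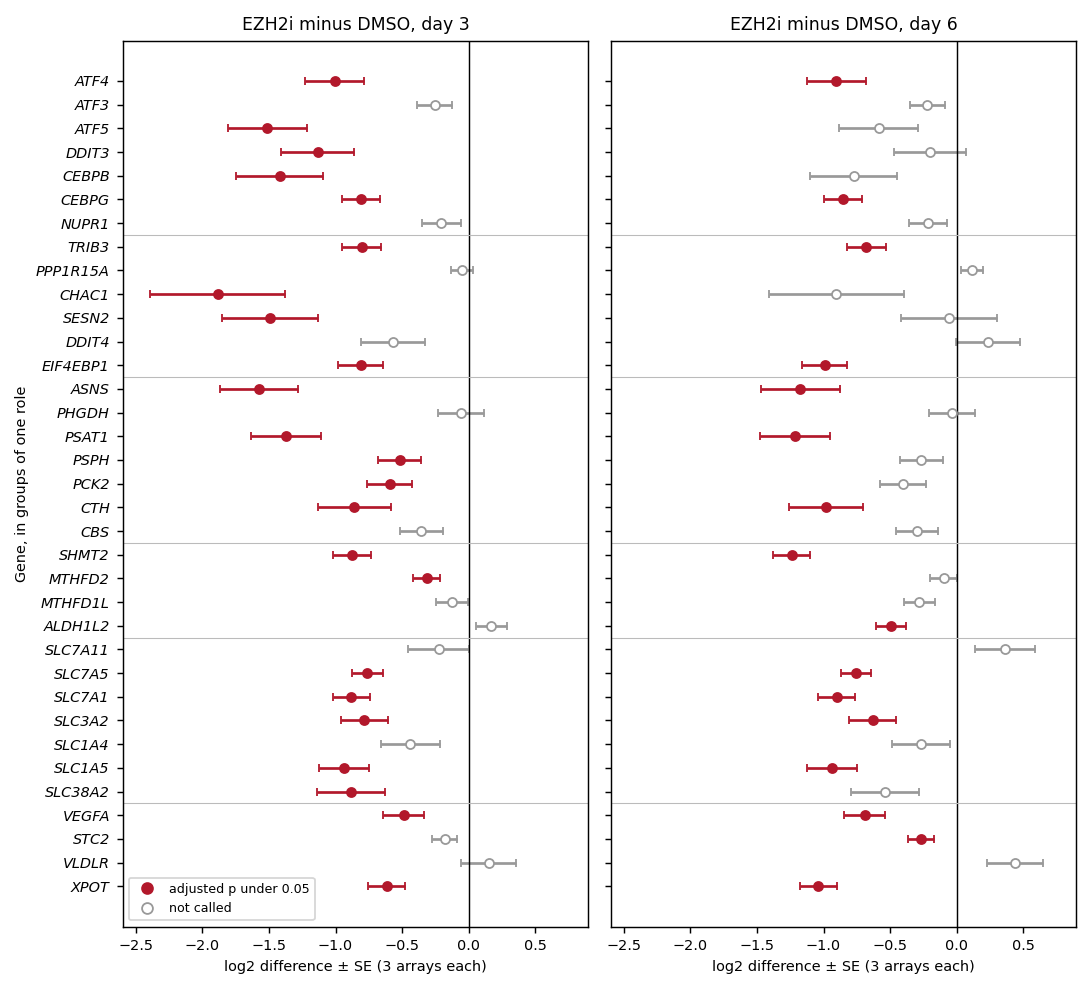
Difference between EZH2i and DMSO in log2 expression (horizontal axis) for each of the 35 genes (rows, grouped by role) at day 3 and at day 6, with the standard error of the fit from 3 arrays per group as bars. Filled red points have an adjusted p under 0.05, 23 at day 3 and 16 at day 6, and all of them lie left of 0.

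Among the 7 transcription factors, 5 were lower with EZH2i at day 3 and 2 at day 6, against 7.65% and 26.9% of all genes. ATF4, the factor that gives the group its name, measured 11.24, 11.36 and 11.50 on EZH2i arrays 1, 2 and 3 of day 3 and 11.54, 12.97 and 12.63 on the DMSO arrays. At day 6 it measured 11.46, 11.35 and 11.44 with EZH2i and 12.34, 12.33 and 12.28 with DMSO. The groups did not overlap at either day, and the DMSO values of day 6 were all high and close together, unlike those of day 3. ATF4 was 2.01-fold lower at day 3 (-1.01 ± 0.22, adjusted p = 0.0027) and 1.87-fold lower at day 6 (-0.90 ± 0.22, adjusted p = 0.0022). The day 3 value was -0.17 (adjusted p = 0.68) without DMSO arrays 2 and 3.

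CEBPG, a C/EBP protein that dimerises with ATF4, measured 8.55, 8.47 and 8.65 with EZH2i and 8.81, 9.77 and 9.51 with DMSO at day 3. The day 6 values were 8.18, 8.30 and 8.32 with EZH2i and 9.21, 9.15 and 8.99 with DMSO. All EZH2i arrays were below all DMSO arrays at both days, and the differences were -0.81 ± 0.14 (adjusted p = 0.00032) and -0.85 ± 0.14 (adjusted p = 3.9e-05). CEBPG was also among the genes that fell within the EZH2i arm, by 0.52 between day 1 and day 6 (adjusted p = 0.0056). Its day 3 difference was -0.25 when DMSO arrays 2 and 3 were left out (adjusted p = 0.15).

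CEBPB, a C/EBP factor induced in stress and inflammation, ATF5, a relative of ATF4, and DDIT3, the stress factor CHOP, were lower at day 3 and not called at day 6. CEBPB measured 9.03, 8.70 and 8.74 with EZH2i and 8.94, 11.13 and 10.65 with DMSO at day 3, so that DMSO array 1 lay among the EZH2i arrays. Its difference was -1.42 ± 0.33 (adjusted p = 0.0036), and -0.12 without DMSO arrays 2 and 3 (adjusted p = 0.82). At day 6 CEBPB measured 8.58, 8.88 and 8.98 with EZH2i and 9.98, 9.72 and 9.06 with DMSO, with no overlap but an adjusted p of 0.058. The day 3 differences were -1.51 ± 0.30 for ATF5 and -1.13 ± 0.27 for DDIT3 (adjusted p = 0.00091 and 0.0048). Without the 2 DMSO arrays they were -0.33 and -0.07. Further probe sets of ATF5 were lower at day 6 (-0.77 and -0.25, in a fit over all probe sets).

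ATF3, another stress-induced factor, and NUPR1, a small chromatin protein, were dim on the probe sets used, at 4.87 to 5.53 and 4.44 to 5.15 over the 6 arrays of day 3. Neither was called. A second probe set of ATF3 differed by -1.52 at day 3 and was called (adjusted p = 0.029 in a fit over all probe sets), which the brightest probe set of that gene was not.

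Among the 6 genes for feedback and growth brakes, 4 were lower at day 3 and 2 at day 6, against 7.65% and 26.9% of all genes. CHAC1, which encodes an enzyme that degrades glutathione and carries the element at base 209 shown above, had the widest range of the 35 genes in DMSO day 3. It measured 5.58, 5.56 and 5.42 with EZH2i and 5.21, 8.70 and 8.30 with DMSO at day 3. DMSO array 1 was the lowest of these 6 arrays, while arrays 2 and 3 were far above all others. The difference was -1.88 ± 0.51 (adjusted p = 0.012), but 0.31 (adjusted p = 0.52) without those 2 arrays. At day 6 CHAC1 measured 5.60, 5.91 and 6.05 with EZH2i and 7.02, 6.92 and 6.33 with DMSO, which did not overlap and were not called (-0.91 ± 0.51, adjusted p = 0.15).

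SESN2, a sestrin that restrains mTORC1 when leucine is scarce, measured 6.44, 6.47 and 6.35 with EZH2i and 6.48, 8.95 and 8.30 with DMSO at day 3. On the day 6 arrays it measured 6.92, 7.22 and 7.12 with EZH2i and 7.55, 7.16 and 6.73 with DMSO, and the arms overlapped. The difference was -1.50 ± 0.36 at day 3 (adjusted p = 0.0052), -0.07 without DMSO arrays 2 and 3 (adjusted p = 0.92), and -0.06 ± 0.36 at day 6 (adjusted p = 0.91). The DMSO arrays of SESN2 spread over most of a log2 unit at day 6, around the EZH2i arrays.

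TRIB3, a pseudokinase that inhibits ATF4 and AKT, and EIF4EBP1, a repressor of cap-dependent translation, were lower at both days. TRIB3 differed by -0.80 ± 0.15 at day 3 and -0.68 ± 0.15 at day 6 (adjusted p = 0.00047 and 0.00067), and by -0.34 at day 3 without DMSO arrays 2 and 3 (adjusted p = 0.19). EIF4EBP1 differed by -0.81 ± 0.17 and -0.99 ± 0.17 (adjusted p = 0.0016 and 5.1e-05), and by -0.19 at day 3 without those arrays (adjusted p = 0.43). Within the EZH2i arm EIF4EBP1 fell by 0.57 from day 1 to day 6 (adjusted p = 0.0098).

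DDIT4, an mTORC1 inhibitor also known as REDD1, and PPP1R15A, the phosphatase subunit GADD34 that reverses eIF2 phosphorylation, were called at neither day. PPP1R15A measured 6.54, 6.54 and 6.53 with EZH2i and 6.39, 6.43 and 6.45 with DMSO at day 6, so the EZH2i arrays were higher without a call (0.11 ± 0.08, adjusted p = 0.27). In the fit of all arrays without the replicate block it was the one gene of the group that rose within the EZH2i arm. Its rise was 0.40 ± 0.08 from day 1 to day 6 (adjusted p = 0.00047). With the block 3 genes rose, against 18.8% of all genes.

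Of the 7 measured genes for amino acid and serine synthesis, 5 were lower at day 3 and 3 at day 6. The shares of all genes were 7.65% and 26.9%. ASNS, asparagine synthetase, measured 10.76, 10.59 and 10.55 with EZH2i and 11.01, 13.02 and 12.60 with DMSO at day 3. At day 6 it measured 10.58, 10.65 and 10.52 with EZH2i and 12.15, 11.66 and 11.47 with DMSO. The EZH2i arrays were below every DMSO array at both days. ASNS was 2.98-fold lower at day 3 (-1.58 ± 0.30, adjusted p = 0.00056) and 2.26-fold lower at day 6 (-1.17 ± 0.30, adjusted p = 0.0025), and its day 3 difference was -0.37 without DMSO arrays 2 and 3 (adjusted p = 0.26).

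PSAT1, the aminotransferase of serine synthesis, measured 9.97, 9.85 and 9.70 with EZH2i and 10.16, 11.99 and 11.49 with DMSO at day 3. The day 6 values were 9.44, 9.57 and 9.38 with EZH2i and 11.01, 10.62 and 10.41 with DMSO. The arms did not overlap at either day, and the day 6 gap was the wider one between the nearest arrays. PSAT1 was 2.59-fold lower at day 3 (-1.37 ± 0.26, adjusted p = 0.00077) and 2.32-fold lower at day 6 (-1.21 ± 0.26, adjusted p = 0.00069). With DMSO arrays 2 and 3 left out, the day 3 difference was -0.31 (adjusted p = 0.32).

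CTH, which makes cysteine from cystathionine, measured 8.62, 8.35 and 8.39 with EZH2i and 8.34, 10.25 and 9.35 with DMSO at day 3, where DMSO array 1 was the lowest. On the day 6 arrays it measured 7.85, 7.61 and 7.62 with EZH2i and 9.03, 8.69 and 8.31 with DMSO, and the arms were separate. The differences were -0.86 ± 0.28 at day 3 (adjusted p = 0.036), 0.11 without DMSO arrays 2 and 3 (adjusted p = 0.82), and -0.98 ± 0.28 at day 6 (adjusted p = 0.0059). CTH was thus called at both days, but its day 3 difference changed sign without the 2 high DMSO arrays. Its day 6 difference does not use those arrays.

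PSPH, the last enzyme of serine synthesis, and PCK2, the mitochondrial phosphoenolpyruvate carboxykinase, were lower at day 3 by 0.52 and 0.59 (log2 differences of -0.52 ± 0.16 and -0.59 ± 0.17, adjusted p = 0.029 and 0.019). Without DMSO arrays 2 and 3 both differences were close to 0, at 0.02 and 0.06. At day 6 PCK2 measured 9.19, 9.41 and 9.24 with EZH2i and 9.72, 9.68 and 9.64 with DMSO, without overlap or call (-0.40 ± 0.17, adjusted p = 0.061). PHGDH, the first enzyme of serine synthesis, and CBS, which makes cystathionine, were dim and called at neither day. Their differences were -0.06 and -0.35 at day 3 and -0.03 and -0.30 at day 6. A further probe set of CBS was lower at day 6 (-0.42, in a fit over all probe sets).

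Of the 4 mitochondrial one-carbon genes, 2 were lower at day 3 and 2 at day 6, against 7.65% and 26.9% of all genes. SHMT2, the mitochondrial enzyme that takes a carbon from serine, measured 9.86, 9.84 and 9.71 with EZH2i and 10.14, 11.09 and 10.81 with DMSO at day 3. At day 6 it measured 9.21, 9.27 and 9.25 with EZH2i and 10.51, 10.55 and 10.39 with DMSO. The EZH2i arrays were lower than every DMSO array at both days, DMSO array 1 of day 3 included. SHMT2 was 1.83-fold lower at day 3 (-0.88 ± 0.14, adjusted p = 0.00012) and 2.36-fold lower at day 6 (-1.24 ± 0.14, adjusted p = 2e-07).

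Within the EZH2i arm SHMT2 averaged 10.24 ± 0.08, 10.16 ± 0.04, 9.80 ± 0.08 and 9.25 ± 0.03 at days 1, 2, 3 and 6 (SD, n = 3 each). Within the DMSO arm it averaged 10.21 ± 0.07, 10.23 ± 0.10, 10.68 ± 0.49 and 10.49 ± 0.08. It fell in the EZH2i arm by 0.44 from day 1 to day 3 (adjusted p = 0.037) and by 0.995 from day 1 to day 6 (adjusted p = 5e-06). The call at day 3, unlike those of most genes named above, did not need DMSO arrays 2 and 3. Its fall from day 1 to day 3 lost its call when any 1 of the 6 EZH2i arrays compared was left out (adjusted p = 0.05 to 0.13).

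MTHFD2, the methylene-tetrahydrofolate dehydrogenase of that pathway, was bright on all arrays, at 12.37 to 12.63 over EZH2i and 12.49 to 13.11 over DMSO at days 3 and 6. It was lower at day 3 (-0.31 ± 0.10, adjusted p = 0.036), not called without DMSO arrays 2 and 3 (-0.03, adjusted p = 0.93), and not called at day 6 (-0.10). ALDH1L2, a folate enzyme that yields NADPH, was dim and measured 4.01, 4.16 and 3.57 with EZH2i and 4.35, 4.41 and 4.46 with DMSO at day 6. It was lower at that day (-0.49 ± 0.12, adjusted p = 0.0014), where EZH2i array 3 was the lowest. At day 3 its EZH2i arrays were above its DMSO arrays without a call (0.17). MTHFD1L, a mitochondrial formate-producing enzyme whose promoter carries the element, was dim and called at neither day (-0.12 and -0.28).

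Of the 7 amino acid transporters, 5 were lower at day 3 and 4 at day 6, against 7.65% and 26.9% of all genes. SLC7A5, the LAT1 carrier of leucine and other large neutral amino acids, measured 10.49, 10.47 and 10.55 with EZH2i and 10.87, 11.60 and 11.32 with DMSO at day 3. The day 6 values were 10.16, 10.35 and 10.43 with EZH2i and 11.14, 11.02 and 11.05 with DMSO. Each EZH2i array was below each DMSO array at both days. SLC7A5 was lower by 0.76 ± 0.11 at day 3 and again at day 6 (log2 differences of -0.76 at both, adjusted p = 5.6e-05 and 1.1e-05).

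The EZH2i means of SLC7A5 were 11.00 ± 0.06, 10.77 ± 0.06, 10.50 ± 0.04 and 10.31 ± 0.14 at days 1, 2, 3 and 6, and the DMSO means 11.02 ± 0.05, 10.91 ± 0.02, 11.26 ± 0.37 and 11.07 ± 0.06 (SD, n = 3 each). Within the EZH2i arm it fell by 0.50 from day 1 to day 3 (adjusted p = 0.0041) and by 0.69 from day 1 to day 6 (adjusted p = 3.9e-05). SLC7A5 and SHMT2 were the 2 genes of the group that fell within the EZH2i arm by day 3, and SLC7A5 kept that call when any 1 of those 6 arrays was left out.

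SLC3A2, the heavy chain that carries SLC7A5 to the membrane, differed by -0.78 ± 0.18 at day 3 and -0.63 ± 0.18 at day 6 (adjusted p = 0.003 and 0.0059), and by -0.25 at day 3 without DMSO arrays 2 and 3 (adjusted p = 0.49). SLC7A1, the carrier of arginine and lysine, measured 10.33, 10.11 and 10.12 with EZH2i and 10.63, 11.42 and 11.15 with DMSO at day 3. On the day 6 arrays it measured 9.94, 9.84 and 10.03 with EZH2i and 10.99, 10.75 and 10.77 with DMSO, and the arms did not overlap at either day. Its differences were -0.88 ± 0.14 and -0.90 ± 0.14 (adjusted p = 8.3e-05 and 1.2e-05), and -0.44 at day 3 without the 2 DMSO arrays (adjusted p = 0.052).

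SLC1A5, a carrier of glutamine, differed by -0.93 ± 0.19 at both days (adjusted p = 0.0012 and 0.0003), and by -0.19 at day 3 without DMSO arrays 2 and 3 (adjusted p = 0.48). SLC38A2, a sodium-coupled carrier of alanine and glutamine that amino acid shortage induces, measured 10.18, 10.19 and 10.42 with EZH2i and 10.11, 11.77 and 11.56 with DMSO at day 3. DMSO array 1 was the lowest of the 6, and the difference of -0.88 ± 0.26 (adjusted p = 0.021) was 0.16 without arrays 2 and 3 (adjusted p = 0.70).

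SLC38A2 averaged 9.59 ± 0.08, 9.99 ± 0.25, 10.26 ± 0.14 and 10.23 ± 0.08 with EZH2i at days 1, 2, 3 and 6, and 9.46 ± 0.15, 9.88 ± 0.12, 11.15 ± 0.91 and 10.77 ± 0.26 with DMSO (SD, n = 3 each). Its change from day 1 to day 6 was 0.64 in the EZH2i arm (adjusted p = 0.053) and 1.31 ± 0.26 in the DMSO arm (adjusted p = 0.024), and the DMSO call was lost when any 1 array of DMSO day 1, or DMSO day 6 array 1 or 2, was left out.

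SLC7A11, the cystine importer, and SLC1A4, a carrier of small neutral amino acids, were called at neither day without the replicate block. Further probe sets of SLC1A4, fitted with all others, were lower at day 3 (-0.39 and -0.42) and day 6 (-0.28 and -0.39). SLC7A11 ranged over 8.30 to 8.58 with EZH2i and 7.83 to 9.12 with DMSO at day 3, so the EZH2i range lay within that of DMSO. At day 6 its difference was positive without a call (0.36 ± 0.23, adjusted p = 0.20). Its day 3 difference was -0.62 and called when DMSO array 1 was left out, and 0.57 without a call when arrays 2 and 3 were (adjusted p = 0.11).

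**Figure D3:**
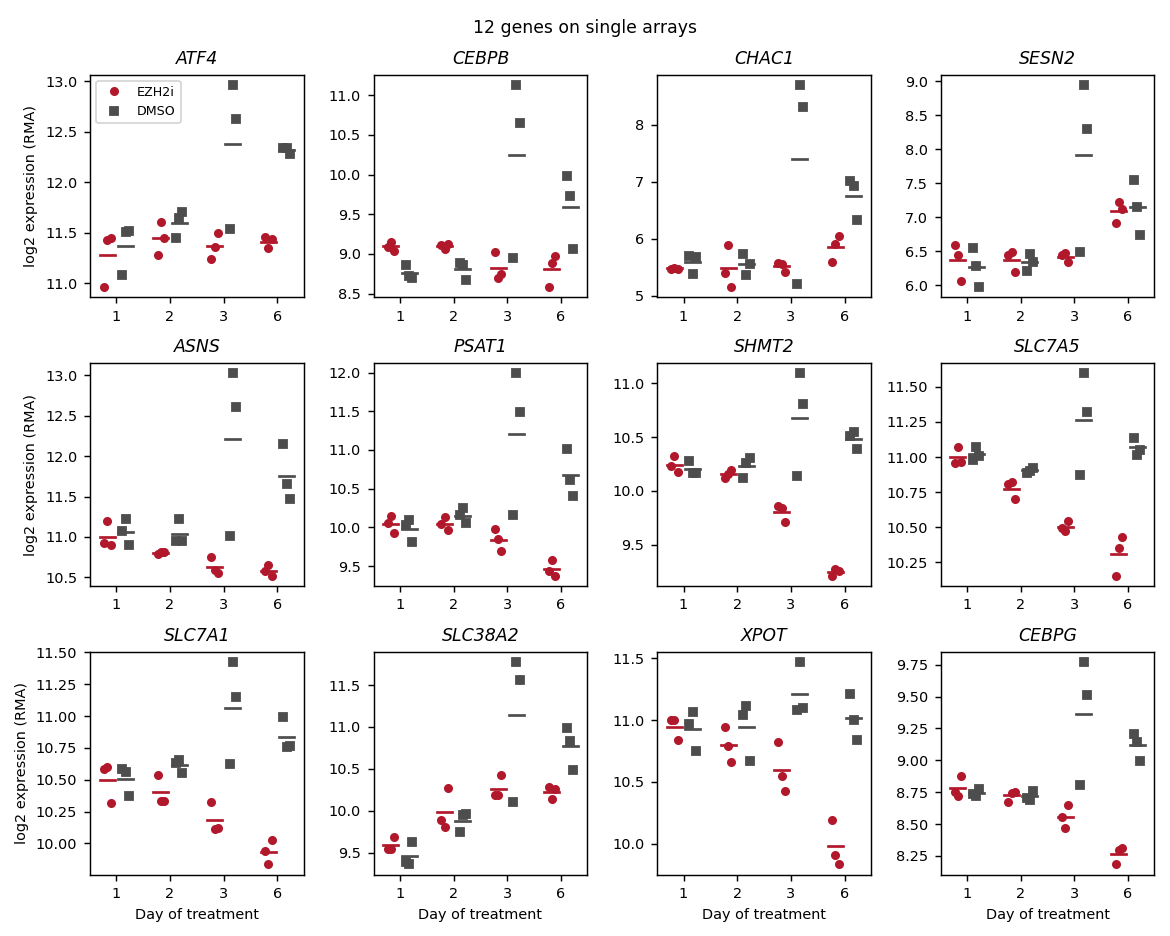
Log2 expression (vertical axis) of 12 of the genes on single arrays at days 1, 2, 3 and 6 (horizontal axis), with EZH2i as red circles to the left of DMSO as grey squares, replicates 1 to 3 from left to right and the group mean as a line. At day 3, DMSO array 1 is the lowest DMSO array for all 12 genes. The EZH2i means of SHMT2, SLC7A5, XPOT, CEBPG, SLC7A1 and ASNS step down from each day to the next.

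In the last set, of genes for secreted and surface proteins and for tRNA export, 2 of 4 were lower at day 3. At day 6, 3 were lower, against 7.65% and 26.9% of all genes at the 2 days. XPOT, the export receptor of tRNA, measured 10.83, 10.55 and 10.42 with EZH2i and 11.08, 11.47 and 11.09 with DMSO at day 3. At day 6 it measured 10.19, 9.91 and 9.83 with EZH2i and 11.21, 11.00 and 10.84 with DMSO. The arms were separate at both days, and DMSO array 2 was the highest at day 3. XPOT was 1.53-fold lower at day 3 (-0.61 ± 0.14, adjusted p = 0.0033) and 2.05-fold lower at day 6 (-1.04 ± 0.14, adjusted p = 2.4e-06). Its day 3 difference was -0.48 without DMSO arrays 2 and 3 (adjusted p = 0.13).

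VEGFA, the angiogenic growth factor, differed by -0.49 ± 0.15 at day 3 and -0.69 ± 0.15 at day 6 (adjusted p = 0.033 and 0.00084), and by 0.04 at day 3 without DMSO arrays 2 and 3 (adjusted p = 0.91). STC2, stanniocalcin 2, was dim and slightly lower at day 6 (-0.27 ± 0.10, adjusted p = 0.028). VLDLR, a lipoprotein receptor, was called at neither day, and its day 6 values ranged over 6.96 to 7.42 with EZH2i and 6.36 to 6.85 with DMSO, without overlap (0.44 ± 0.21, adjusted p = 0.09 without the replicate block).

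Because a difference between arms can come from either arm, the change within each arm was tested too. From day 1 to day 3, 2 of 35 genes fell in the EZH2i arm, SHMT2 and SLC7A5, against 8.75% of all genes, and 4 with the replicate block, against 12.7%. In the DMSO arm 7 of 35 rose over the same days, against 0.379% of all genes: ATF4 (1.01), CEBPB (1.48), SESN2 (1.65), PSAT1 (1.23), PCK2 (0.88), CTH (1.32) and SLC38A2 (1.69). All 7 calls were lost without DMSO day 3 arrays 2 and 3. The count was 11 with the replicate block, against 1.04% of all genes rising. It was 23 without DMSO day 3 array 1, against 0.905% of all genes, and 1 without array 2, without array 3 or without any 1 array of DMSO day 1. The median change of the 35 genes was -0.07 in the EZH2i arm and 0.51 in the DMSO arm, against -0.05 and -0.02 over all genes.

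From day 1 to day 6, 8 of 35 genes fell in the EZH2i arm and 1 rose, against 24% of all genes falling and 16.9% rising. The 8 were SHMT2 (-0.995), XPOT (-0.97), SLC7A5 (-0.69), EIF4EBP1 (-0.57), SLC7A1 (-0.57), SLC3A2 (-0.52), CEBPG (-0.52) and SLC1A5 (-0.52). SLC1A5 lost that call without any of 5 of the 6 arrays (adjusted p = 0.052 to 0.083) and SLC3A2 without either of 2 (adjusted p = 0.11). Limited to the 2 groups compared, the fit called 14 lower and 7 higher, against 19.8% and 15.4% of all genes. With the replicate block 9 were lower and 3 higher, against 26.9% and 18.8% of all genes. In the DMSO arm 1 of 35 rose, SLC38A2, against 0.238% of all genes, and 2 with the replicate block, against 0.703%. In the fit without the block 31 of 35 changes were positive and 15 had an unadjusted p under 0.05. The median change was -0.20 in the EZH2i arm and 0.28 in the DMSO arm, against -0.10 and -0.01 over all genes.

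The changes of the 2 arms from day 1 were also set side by side. They leave out the difference already present at day 1, which was -0.31 for ALDH1L2 and -0.24 for VEGFA, neither of them called. Of the 23 genes lower at day 3, the change from day 1 was larger in the DMSO arm for 20, with medians of -0.18 in the EZH2i arm and 0.62 in the DMSO arm. Of the 16 genes lower at day 6, the change was larger in the EZH2i arm for 11, with medians of -0.52 in the EZH2i arm and 0.31 in the DMSO arm. ATF4, ASNS, PSAT1, CTH and VEGFA were the 5 whose DMSO change was the larger at day 6. These are descriptions of the fitted means, and their difference was not tested.

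**Figure D4:**
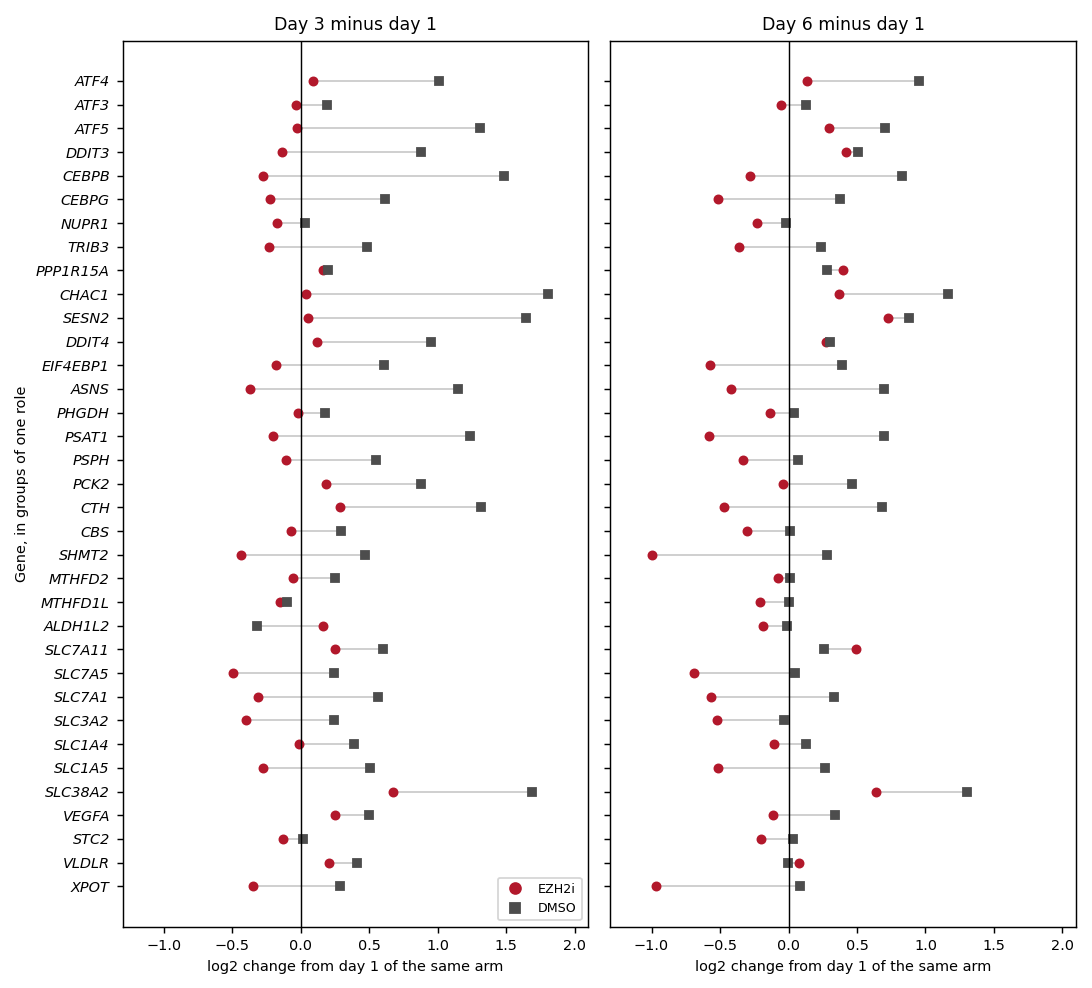
Log2 change from day 1 of the same arm (horizontal axis) for the 35 genes (rows) at day 3 and at day 6, EZH2i as red circles and DMSO as grey squares, joined by a line. At day 3 the DMSO squares spread to the right, to 1.81 for CHAC1, while the EZH2i circles stay between -0.50 for SLC7A5 and 0.67 for SLC38A2; at day 6 the EZH2i circles reach -0.995 for SHMT2.

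From day 3 to day 6, 3 of 35 genes fell in the EZH2i arm (SHMT2 by 0.56, XPOT by 0.62 and ALDH1L2 by 0.35) and PPP1R15A rose by 0.24, against 20.7% of all genes called. The calls of ALDH1L2 and PPP1R15A were lost without any of 4 and 5 of the 6 arrays (adjusted p = 0.057 to 0.25 for both). With the replicate block 4 genes fell and 1 rose in this arm, against 27.1% of all genes called. In the DMSO arm 0 of 35 were called and 0% of all genes, with 7 of 35 at an unadjusted p under 0.05. Without DMSO day 3 array 1, 15 of 35 fell from day 3 to day 6 in the DMSO arm, against 0.157% of all genes. From day 1 to day 2 no gene of the group was called in the EZH2i arm (0.93% of all genes, with 2 of 35 at an unadjusted p under 0.05) or in the DMSO arm (0.0253% of all genes, with 0 of 35).

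These genes had 39 further probe sets with 1 symbol. In a fit over all 41091 such probe sets, 20 of the 39 were lower with EZH2i at day 3 and 0 higher, against 5.49% and 6.9% of all probe sets, and 38 differences were negative. At day 6, 18 were lower and 1 higher, a probe set of PSPH (0.32), against 22.9% and 17.3% of all. The differences were negative for 33 and positive for 6. Probe sets of ATF5 (-0.77 and -0.25), CBS (-0.42), SLC1A4 (-0.28 and -0.39) and SLC38A2 (-0.79 and -0.73) were among those 18. The brightest probe sets of these genes were not called at day 6, nor were other probe sets of ATF5, CBS and SLC1A4. Conversely, a further probe set each of ASNS, CEBPG, TRIB3, SLC7A1 and STC2 was not called at day 6 although the brightest was. That of STC2 differed by 0.03. The further probe sets of ALDH1L2 (-0.14 and 0.06) were not called either, unlike its brightest.

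Several lists of related genes were set beside the 35. They were written with earlier results of these data known, so their counts are descriptions. Of all genes, 7.65% were called lower with EZH2i at day 3 and 26.9% at day 6. In either direction the shares were 16.3% and 45.4%. Cytosolic aminoacyl-tRNA synthetases, which load tRNAs with amino acids and include known ATF4 targets, were lower in 13 of 17 at day 3 and in 15 of 17 at day 6, with 0 higher at either. Their medians were -0.46 and -0.64. Largest at day 3 were GARS1 (-1.01), YARS1 (-0.98) and TARS1 (-0.91), the glycyl, tyrosyl and threonyl enzymes. The mean change of the 17 genes from DMSO day 1 was -0.30, -0.35 and -0.37 on the EZH2i arrays and -0.03, 0.40 and 0.25 on the DMSO arrays of day 3, so DMSO array 1 was again the lowest. Without DMSO arrays 2 and 3 the day 3 median of the 17 was -0.35, against -0.03 over all genes. The differences were then -0.63 for GARS1, -0.42 for YARS1 and -0.57 for TARS1. In that fit, with a lone DMSO array at day 3, fewer of the 17 were called and TARS1 was not. Within the EZH2i arm 6 of 17 fell by day 3 and 12 of 17 by day 6, against 8.75% and 24% of all genes.

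Other known ATF4 or amino acid response targets were lower in 6 of 15 and higher in 1 at both days. The shares of all genes called lower were 7.65% at day 3 and 26.9% at day 6. SLC43A1, a transporter of neutral amino acids (-1.04), and IFRD1 (-0.78) were among those lower at day 3, and without DMSO arrays 2 and 3 the count was 1 lower and 1 higher, and neither SLC43A1 (-0.30, adjusted p = 0.11) nor IFRD1 (-0.48, adjusted p = 0.13) was called. GADD45A, a growth arrest gene that ATF4 and p53 both induce, went the other way, with differences of 0.66, 1.41, 2.25 and 4.03 at days 1, 2, 3 and 6, called from day 2 (adjusted p = 0.37, 0.00038, 3.6e-07 and 4.8e-12). Its day 3 difference was 2.37 without the 2 DMSO arrays.

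A further list held the kinases of eIF2, the subunits of eIF2 and its exchange factor, and EIF2A, IMPACT and GCN1. Of its 15 genes, 4 were lower and 2 higher at day 3. At day 6, 9 were lower and 2 higher, against 7.65% and 26.9% of all genes lower at the 2 days. EIF2A, IMPACT and GCN1 were among the 9. Those higher were EIF2AK2, the kinase PKR that double-stranded RNA activates (1.29 at day 3 and 1.69 at day 6), and EIF2AK3, the kinase PERK of the endoplasmic reticulum (0.31 and 0.89). All 4 genes lower at day 3 encode subunits, among them EIF2S1 (-0.38 and -0.95) and EIF2B3 (-0.49 and -0.95). The day 3 median of the 15 was -0.16 with all arrays. It was -0.22 when DMSO arrays 2 and 3 were left out, with EIF2AK2 at 1.31 and fewer genes called lower.

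Among mTORC1 and sestrin genes, SESN3 (2.05 and 3.35) and SESN1 (0.80 and 1.48) were higher at days 3 and 6, as was SESN3 at day 2 (1.47), whereas SESN2, one of the 35, was not called at day 6. In the list as a whole 3 of 15 were higher and 2 lower at day 3. At day 6, 4 were higher and 6 lower. Over all genes 7.65% and 26.9% were called lower at days 3 and 6, and 16.3% and 45.4% in either direction. Both sestrins kept their day 3 calls without DMSO arrays 2 and 3 (SESN3 at 1.91 and SESN1 at 0.70). Other one-carbon and glycine genes were lower in 3 of 10 at day 3, and in 7 of 10 with 1 higher at day 6. With DMSO day 3 arrays 2 and 3 left out, fewer of the 10 were called at day 3. Their day 3 median was then -0.23, against -0.22 with all arrays. MTHFD1, the cytosolic folate enzyme, stood at -1.35 and TYMS, thymidylate synthase, at -1.14 at day 6.

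**Figure D5:**
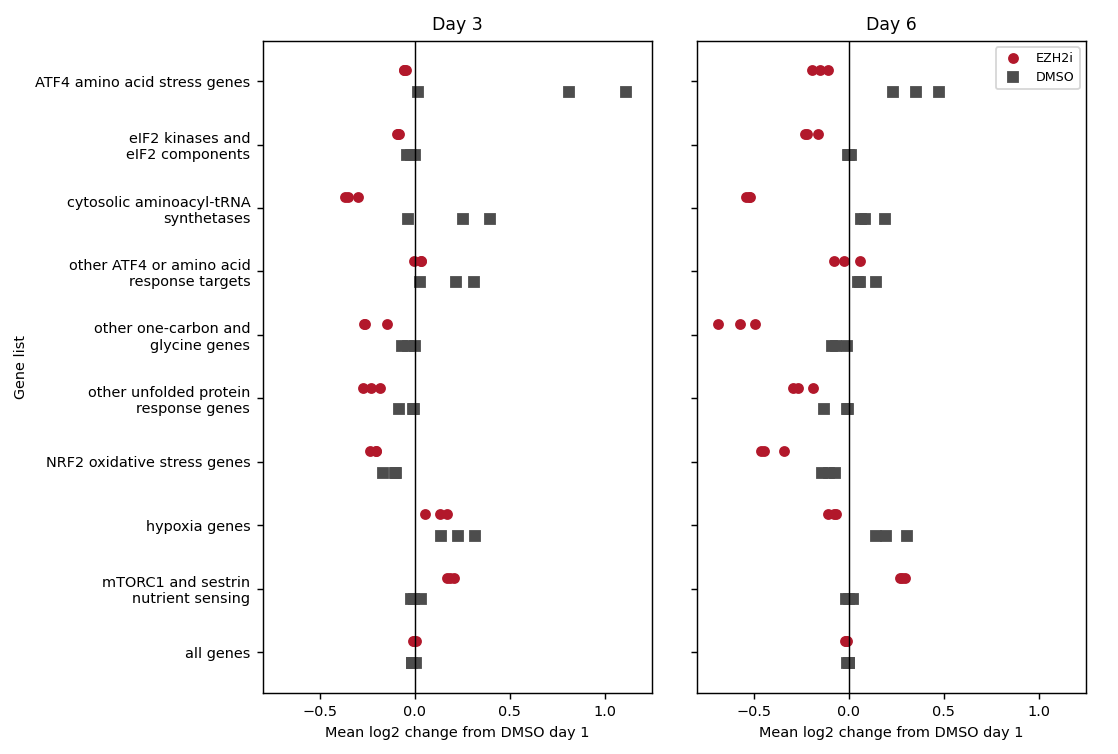
Mean log2 change from the DMSO day 1 mean (horizontal axis) of the 35 genes, of 8 related lists and of all genes (rows) on single arrays of day 3 and day 6, EZH2i as red circles above DMSO as grey squares. The DMSO day 3 squares of the 35 genes lie at 0.02, 0.81 and 1.11, a wider range than in any of the other lists shown, and all genes lie at 0.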

How the data were processed

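RNA of KARPAS-422 cultures, 3 in each of 8 groups, went onto 24 Affymetrix arrays (U133 Plus 2). The deposited values are log2 expression per probe set, which the authors made with RMA; the submitters' processing notes also name R 2.10.1. RMA corrects background, quantile normalizes across arrays and summarises the probes of a set, so a shift of all transcripts together would be removed. Values ran from 1.72 to 14.33, no spot background is given, and the number of arrays limits the precision. Of the deposited probe sets there were 54613, of which 41091 had 1 gene symbol and 1801 several. Symbols were updated by Entrez ID for 41037 probe sets. The probe set brightest on average stood for each of 19775 genes. Per-sample columns without a use numbered 0.

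Groups were fitted together with limma 3.58.1 in R 4.3.3 (1 coefficient per group, empirical Bayes with 16 residual and 5.22 prior degrees of freedom), and p-values were adjusted by the Benjamini-Hochberg method over all 19775 genes of a contrast, 2-sided, with a threshold of 0.05. Every adjusted p in the text comes from this fit unless another is named, and ± beside a difference is its SE. With 3 arrays a side, an exact permutation test of a single value cannot go below 0.1. The fit was tested on simulated data. Further tools were statmod (1.5.0) and the R package data.table (1.17.8). Genes called in at least 1 contrast between arms, or from day 1 to day 3 or 6 within an arm, could be given array by array, and the others by range and counts. The members and lists were chosen with earlier results of these data known, and leaving out DMSO day 3 arrays 2 and 3 was chosen after seeing the data. Array deviations from the group means correlated over 0.1 in every pair of the same replicate number at days 1, 3 and 6 and in 11 of 12 pairs over all days (number 2 of day 2 was at 0.043), so values with the number as a block stand beside results whose call or count they change. Alternatives were the replicate block, array weights, other probe set and gene filters, another normalization, fits limited to the groups compared, and leaving out arrays.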

Additional observations from a re-analysis of the deposited data

Results flagged for a closer look

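For 6 genes the EZH2i minus DMSO difference itself changed between day 1 and day 3 (limma interaction contrast, adjusted over all genes, of which 1.01% were called in this direction). The changes of the log2 difference were -1.76 ± 0.46 for CEBPB (adjusted p = 0.043), -0.85 ± 0.20 for CEBPG (adjusted p = 0.027) and -1.44 ± 0.37 for PSAT1 (adjusted p = 0.042). For SHMT2 the change was -0.91 ± 0.20 (adjusted p = 0.016), for SLC7A5 -0.74 ± 0.16 (adjusted p = 0.016) and for SLC7A1 -0.88 ± 0.19 (adjusted p = 0.018). The count was 0 without DMSO day 3 arrays 2 and 3 and 21 without DMSO day 3 array 1. ALDH1L2 was the 1 gene whose difference changed between day 3 and day 6, by -0.66 ± 0.16 (adjusted p = 0.0084), where 12.5% of all genes were called. That call was lost without DMSO day 3 arrays 2 and 3 (adjusted p = 0.063), without the arrays numbered 1 (0.095) or 3 (0.099), and with the mean of its probe sets (-0.17, adjusted p = 0.19), and it was kept when any 1 array was left out. With the replicate block the counts for the 2 changes were 12 and 2.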

How the results depend on the processing

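Counts below are genes of the 35 called in either direction. Leaving out 1 array gave 15 to 27 for EZH2i minus DMSO at day 3, 15 to 17 at day 6 and 0 to 0 at days 1 and 2. Within the EZH2i arm it gave 0 to 0 for day 2, 1 to 2 for day 3 and 7 to 10 for day 6 minus day 1, and 2 to 3 for day 6 minus day 3. Within the DMSO arm these ranges were 0 to 0, 1 to 23, 0 to 1 and 0 to 15. The change of the difference gave 2 to 21 for day 3 against day 1 and 1 to 12 for day 6 against day 3. With the replicate block, the counts were 4 for EZH2i day 3 and 11 for DMSO day 3 minus day 1, 2 for DMSO day 6 minus day 1, and 12 and 2 for the changes of the difference (11 and 2 with the block within each day); the block added SLC1A4 at day 3 and PCK2 and VLDLR at day 6 and moved no other count by over 1.5 times. Deviations of same-number arrays had a median correlation of 0.24, and the own number ranked first for 21 of 24 arrays. The median for unlike numbers, -0.13, largely follows from taking deviations from the group means and is not a separate observation. Without the arrays numbered 1, the counts were 14 for EZH2i day 6 minus day 1, 20, 2 and 11 for the DMSO arm (day 3 and day 6 minus day 1, day 6 minus day 3), and 20 and 11 for the changes of the difference. Without those numbered 2, they were 4 for EZH2i minus DMSO at day 3, 0 and 1 for EZH2i day 3 minus day 1 and day 6 minus day 3, and 0 for DMSO day 3 and day 6 minus day 1 and the change at day 3. Without those numbered 3, they were 7 at day 3, 0, 5 and 1 in the EZH2i arm, and 0 for DMSO day 3 and day 6 minus day 1 and both changes. Averaging the probe sets of each gene gave 1 for EZH2i day 3 minus day 1 and 0 for the change at day 6, the brightest 60% of genes 0 for that change, and a second quantile normalization 1 for EZH2i day 3 minus day 1. Fits limited to the groups compared gave 10 at day 3, 21 and 9 for EZH2i day 6 minus day 1 and day 6 minus day 3, 0 and 2 for DMSO day 3 and day 6 minus day 1, and 1 for the change at day 3. Array weights gave 4 for EZH2i day 3, 18 for DMSO day 3 and 2 for DMSO day 6 minus day 1, and 17 and 3 for the changes. Without DMSO day 3 arrays 2 and 3 the counts were 2 at day 3, 0 for DMSO day 3 minus day 1, and 0 and 9 for the changes; the fewer arrays are part of that setting, and for all others the cause was not tested. Of 1756 values of single genes, 1413 kept direction and side of the threshold, 282 lost and 32 gained the call, and 29 changed sign. At day 3 without DMSO arrays 2 and 3 these were ATF3 0.10, CHAC1 0.31, DDIT4 0.23, PSPH 0.016, PCK2 0.058, CTH 0.11, SLC1A4 0.18, SLC38A2 0.16, VEGFA 0.041, SLC7A11 0.57, PHGDH 0.047 and PPP1R15A 0.16. Leaving out 1 array gave differences at day 3 of -0.15 to 0.031 for PPP1R15A (0.013 without DMSO array 3), -0.21 to 0.083 for PHGDH, -0.62 to 0.019 for SLC7A11 and -0.094 to 0.31 for VLDLR. At day 6 it gave -0.26 to 0.14 for SESN2 (0.026 without EZH2i array 1) and -0.093 to 0.040 for PHGDH. Without the arrays of 1 number the sign also changed for VLDLR (-0.12, number 1), SLC7A11 (0.060, number 2) and PHGDH (0.13, number 3) at day 3, and for SESN2 (0.23, number 1), PHGDH (0.042, number 3) and DDIT4 (-0.0050, number 3) at day 6. The probe set mean gave -0.018 for ALDH1L2 at day 3 and 0.022 for ATF3 at day 6, and a second quantile normalization -0.029 for PPP1R15A at day 6.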

Other observations

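The other arms of the unfolded protein response were lower with EZH2i in 6 of 19 genes at day 3 and higher in 1. At day 6 they were lower in 10 and higher in 3. Among all genes, 7.65% were called lower at day 3 and 26.9% at day 6. XBP1, the transcription factor that IRE1 activates by splicing, differed by -1.36 and -0.79 at days 3 and 6, while ERN1, which encodes IRE1, differed by 0.45 and 1.30. MANF, a secreted protein of the endoplasmic reticulum, stood at -1.15 at day 6. The day 3 median of the 19 was -0.13 with all arrays. It was -0.24 when DMSO arrays 2 and 3 were left out, where fewer of the genes were called. In that setting neither XBP1 (-0.58, adjusted p = 0.085) nor ERN1 (0.29, adjusted p = 0.31) was called at day 3.

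NRF2 genes were lower in 2 of 13 and higher in 1 at day 3, and lower in 7 and higher in 1 at day 6. The all-gene shares called lower, for this list and the next, were 7.65% and 26.9%. NQO1, a quinone reductase, differed by -0.69 and -1.61 at days 3 and 6 and GCLM, a subunit of glutathione synthesis, by -1.13 at day 6, whereas HMOX1, haem oxygenase, was higher (1.14). Hypoxia genes were lower in 3 of 15 and higher in 2 at day 3, and lower in 9 and higher in 2 at day 6. P4HA1, a collagen prolyl hydroxylase, differed by -0.71 and -0.99 and LDHA, lactate dehydrogenase, by -0.96 at day 6, while HIF1A was higher at both days (0.30 and 0.69). Without DMSO day 3 arrays 2 and 3, the day 3 counts were 1 lower and 0 higher for NRF2 genes and 0 lower and 2 higher for hypoxia genes, and neither NQO1 (-0.62, adjusted p = 0.16) nor P4HA1 (-0.88, adjusted p = 0.12) was called.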
